A study of Mus musculus with 4 samples.

Results

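Nuclear receptors are transcription factors that bind DNA, most of them under the control of a small fat-soluble ligand. The genes described here are 42 mouse nuclear receptors, taken by gene symbol. The list does not hold every receptor, and it leaves aside Nr0b1, Nr5a2 and Esrrb, which are well known from embryonic stem (ES) cells. Of the 42, 40 had at least 1 probe set named with their symbol alone, out of 18193 genes on the array. The oxysterol receptor Nr1h2 and the photoreceptor receptor Nr2e3 were not analysed here. The 40 genes had 105 probe sets, and each gene was represented by its brightest one. The study compared mouse ES cells that were wild type (WT) with cells in which the zinc finger transcription factor Klf5 had been knocked out (KO). There were 2 clones of each genotype and 1 Affymetrix array per clone. All 4 clones grew in ES medium with bovine serum and LIF, the cytokine that holds mouse ES cells in the undifferentiated state. The labels give neither the parental ES cell line nor the part of Klf5 that was removed, and they do not say whether the clones of a group were derived independently. The p-values therefore measure the spread between these arrays.

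A typical nuclear receptor has a DNA-binding domain of paired zinc fingers and a ligand-binding domain that exchanges corepressors for coactivators when its hormone or metabolite binds. Retinoic acid, thyroid hormone, vitamin D and lipid receptors pair with RXR, steroid receptors pair with themselves, and the orphan receptors have no settled hormone. In ES cells and early embryos, retinoic acid receptors drive exit from the undifferentiated state, and orphan receptors such as Nr6a1 and Nr2f2 repress Pou5f1 as cells differentiate.

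Values are intensities on a linear scale after quantile normalization, a step that gives every array the same distribution. Klf5 read 2398 and 1782 in WT against 34.8 and 49.9 in KO clones (here and below in the order clone 1, clone 2), so the arrays matched their labels. As deposited, the trimmed mean intensity ranged from 137 to 226 over the arrays, with WT clone 1 brightest. Fold changes are on the scale log2(intensity + 16), which understates the change of dim genes, and their errors are moderated standard errors (SE) with n = 2 arrays per group. Genes passed at an adjusted p below 0.05 (limma, Benjamini-Hochberg over 27022 probe sets). Over all 13023 genes kept by a filter on dim probe sets, 4.28% passed: 2.94% were higher and 1.34% lower in KO clones. With arrays centred on the median instead of quantile normalized, more genes were lower (731) than higher (347), against 175 lower and 383 higher as reported. As a gauge of background, 43 probe sets of olfactory receptors, which ES cells should hardly express, were used: their 95th percentile lay between 12.8 and 15.9 on the 4 arrays. A probe set above that value on its own array is called above background here.

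Of the 40 nuclear receptor genes, 17 were above background on all 4 arrays, 2 were above it in both KO clones and neither WT clone, 0 showed the reverse, 7 were above it on no array, and 14 were above it on 1 to 3 arrays. Over all genes with a probe set the shares were 63.4% on all 4 arrays, 1.16% in KO clones alone and 1.16% in WT clones alone. The genes above background throughout were Nr1d1, Nr1d2, Rara, Rarg, Rxra, Rxrb, Ppard, Thra, Rora, Nr2c1, Nr2c2, Nr2f6, Nr6a1, Esrra, Nr3c1, Nr4a1 and Nr4a2. Those above it nowhere were Nr1i3, Rarb, Pparg, Hnf4g, Nr2e1, Esr2 and Nr4a3. The same 17 and 2 were counted with the 99th percentile of the olfactory receptor probe sets and in the values as deposited.

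**Figure D1:**
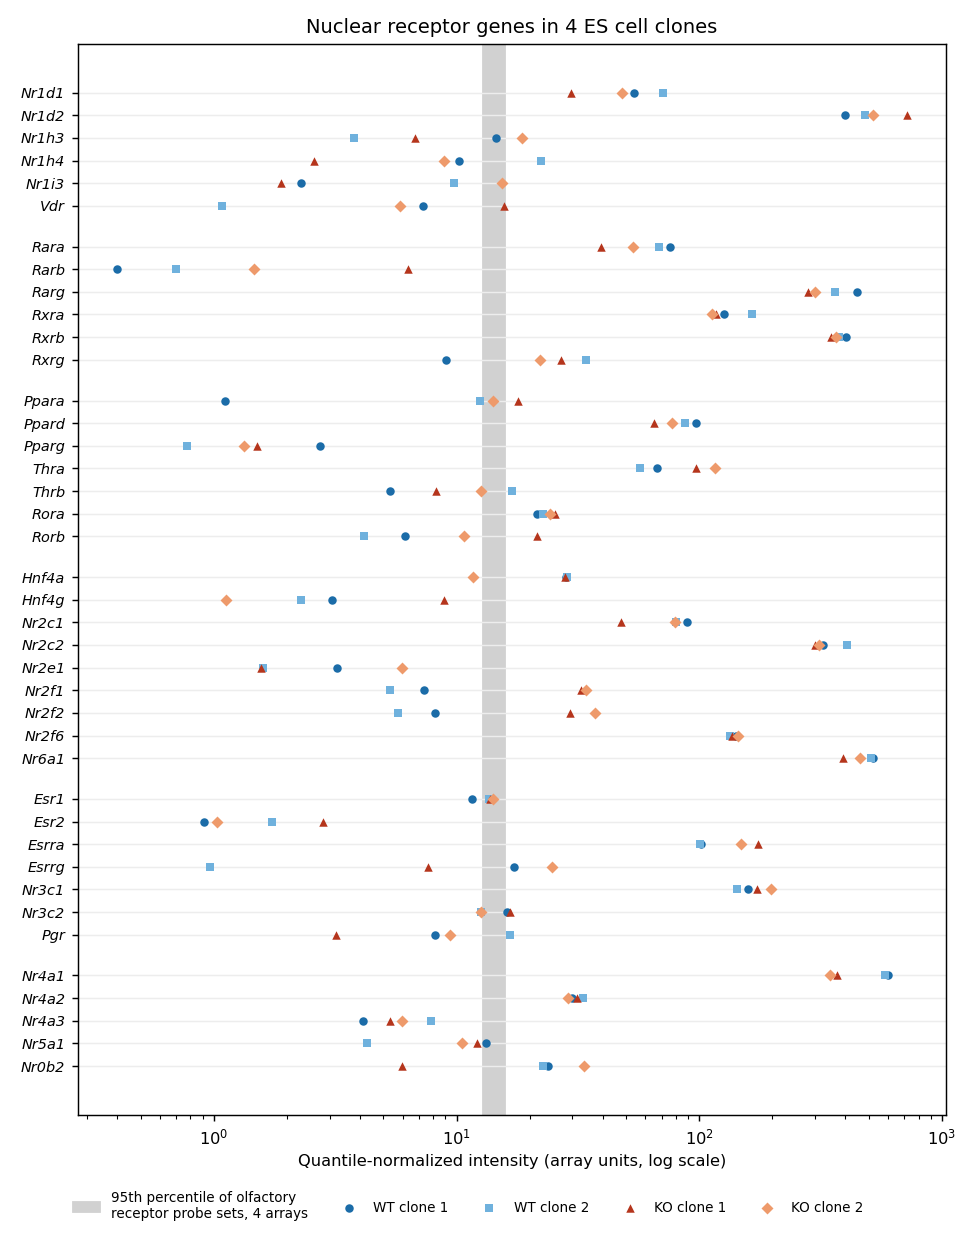
Normalized intensity (array units, log axis) of the 40 nuclear receptor genes, 1 row per gene in 6 groups by class, with 1 point per array; the grey band spans the 95th percentile of olfactory receptor probe sets over the 4 arrays (12.8 to 15.9). Nr2f1 and Nr2f2 are the genes whose WT points lie left of the band and whose KO points lie right of it, while 17 genes lie right of it on every array.

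The filter kept 24 of the 40 genes for testing. Of these, 2 rose (Nr2f1 and Nr2f2), 0 fell and 22 did not pass, beside the 2.94% higher and 1.34% lower of all genes tested. Both genes that rose were among the 24 only through their KO values, so nothing is read from this count against the share of all genes, and with no filter 0 of 40 passed by limma. At an unadjusted p below 0.05 (limma), 4 were higher and 4 lower, where 10.9% and 10.6% of all genes were. Both KO arrays lay above both WT arrays for 8 of the 24 genes and below them for 11, against 25.9% and 29.7% of all genes (55.6% in either direction). In the values as deposited these counts were 2 and 7 (8.36% and 30.5% of all genes). The median log2 fold change of the 24 genes was -0.08, and that of all genes -0.02. The 16 genes under the filter read between 0.401 and 24.7 on any array, and no test was made of them. Among these, the representing probe sets of Rarb, Ppara and Rorb read higher in both KO clones and that of Nr1h4 read lower in both. Each was above background on 1 array at most. Another probe set of Ppara read lower in both KO clones (2.60 and 4.81 in WT against 0.942 and 1.52). Its remaining one and the other ones of Rorb overlapped between genotypes. The share of all genes under the filter was not counted, so nothing is read from this.

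**Figure D2:**
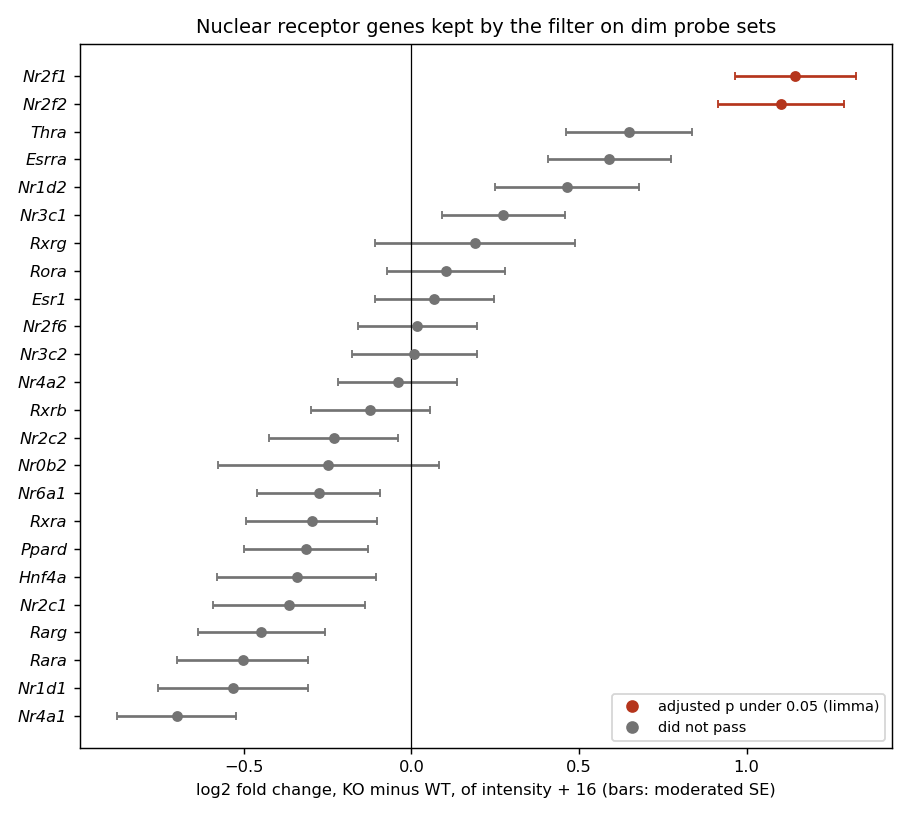
Log2 fold change (KO minus WT, of intensity + 16) of the 24 nuclear receptor genes kept by the filter, ordered by size, with bars for the moderated SE (2 arrays per group). Nr2f1 (1.15) and Nr2f2 (1.10), in red, are the genes that passed, and the others lie between -0.70 and 0.65.

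The genes that rose were the COUP transcription factors Nr2f1 (COUP-TFI) and Nr2f2 (COUP-TFII), orphan receptors that bind direct repeats of the receptor core site and act mostly as repressors. Nr2f1 is best known from the patterning of the brain and neural crest, and Nr2f2 from veins, atria and mesenchyme. Nr2f1 read 7.35 and 5.30 in WT against 32.6 and 34.1 in KO clones. Both WT values lay under the background and both KO values above it. On the log2 scale the rise was 1.15 ± 0.18 (moderated SE from 2 arrays a group), with an adjusted p of 0.011 in limma. Nr2f2 read 8.15 and 5.73 in WT against 29.4 and 37.3 in KO clones. Here too the groups were separated by the background value. Its log2 value rose by 1.10 ± 0.19 (adjusted p = 0.016). Since no WT array measured either gene above background, the WT level is only a bound. Set against the olfactory receptor percentile of the WT arrays, without a pseudocount, the KO clones were at least 2.36-fold higher for Nr2f1 and at least 2.34-fold higher for Nr2f2. Both genes passed the filter, set at an intensity of 13.0, only through their KO values.

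The calls for the COUP factors depended on the arrays and on the filter. With no filter the adjusted p was 0.068 for Nr2f1 and 0.086 for Nr2f2, and in the values as deposited it was 0.15 and 0.18. Without WT clone 2 it was 0.056 and 0.075, and without KO clone 1 it was 0.088 and 0.082, while both genes passed without WT clone 1 (0.030 and 0.040). Without KO clone 2, or with the filter at the 60th percentile, both fell under the filter and could not be tested. Both genes were measured in 11 alternatives, with log2 fold changes from 0.47 to 2.24 for Nr2f1 and from 0.46 to 2.12 for Nr2f2. The ends were set by pseudocounts of 64 and 1. The direction was upward in each. Since both KO values lay above both WT values, a changed pseudocount, filter or fit could not turn it. A left-out array or another scaling could hardly do so, and nothing is read from the constant direction. Nr2f1 had a single probe set. Nr2f2 had 5 further ones, all under the filter, and 3 of these read higher in both KO clones: 15.3 and 28.2 against 5.32 and 5.48 in WT for the brightest. The remaining 2 overlapped between genotypes, at 0.576 to 10.9 in KO clones. The third member of the family, Nr2f6 (EAR2), a repressor in lymphoid cells, read 142 and 134 in WT against 136 and 144 in KO clones. Its groups overlapped, with a log2 fold change of 0.02 (95% confidence interval -0.38 to 0.42) that was -0.20 with median centring and -0.24 in the values as deposited. Cross-hybridisation between transcripts of these paralogs was not tested.

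The promoters of the COUP factors are shown because these are the members that rose together, with that of Rarg, whose values lay lower in KO clones, for contrast. Each is the 250 bases upstream of the outermost annotated gene start in RefSeq (GRCm38.p6), 5′ to 3′ on the gene's strand: chr13:78198874-78199123 on the minus strand for Nr2f1, chr7:70366747-70366996 on the minus strand for Nr2f2 and chr15:102257523-102257772 on the minus strand for Rarg. Capitals mark CACCC or its complement GGGTG, the core of the box bound by Kruppel-like factors such as Klf5, and AGGTCA or its complement TGACCT, the core site of nuclear receptors.
Nr2f1: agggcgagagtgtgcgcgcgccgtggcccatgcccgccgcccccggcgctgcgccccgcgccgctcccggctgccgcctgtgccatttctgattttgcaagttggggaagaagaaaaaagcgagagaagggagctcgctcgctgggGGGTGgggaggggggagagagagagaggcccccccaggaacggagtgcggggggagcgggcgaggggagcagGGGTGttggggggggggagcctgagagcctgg
Nr2f2: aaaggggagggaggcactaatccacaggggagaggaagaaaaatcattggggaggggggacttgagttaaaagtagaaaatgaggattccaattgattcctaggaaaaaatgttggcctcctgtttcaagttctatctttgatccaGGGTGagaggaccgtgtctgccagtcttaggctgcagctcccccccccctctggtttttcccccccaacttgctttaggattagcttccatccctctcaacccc
Rarg: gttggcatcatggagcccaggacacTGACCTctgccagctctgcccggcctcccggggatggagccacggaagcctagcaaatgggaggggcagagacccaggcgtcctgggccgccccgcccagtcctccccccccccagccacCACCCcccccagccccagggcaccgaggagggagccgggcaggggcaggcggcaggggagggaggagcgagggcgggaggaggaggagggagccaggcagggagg

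The letters CACCC, searched on both strands, began 104 and 32 bases upstream of the start of Nr2f1, 104 bases upstream for Nr2f2 and 105 bases upstream for Rarg. AGGTCA was found 225 bases upstream of Rarg and in neither COUP factor window, and no match of one motif overlapped a match of the other. Such windows were found for 38 of the 42 receptors, and 24 of them (63.2%) held CACCC, against 51.3% of the windows of 27025 genes. For AGGTCA the count was 5 of 38 (13.2%) against 13.8%. The receptor windows had a median GC content of 62.6% against 52% for all genes, and CACCC is itself rich in C and G. A match describes the letters only, and the share of all genes that hold CACCC is large.

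**Figure D3:**
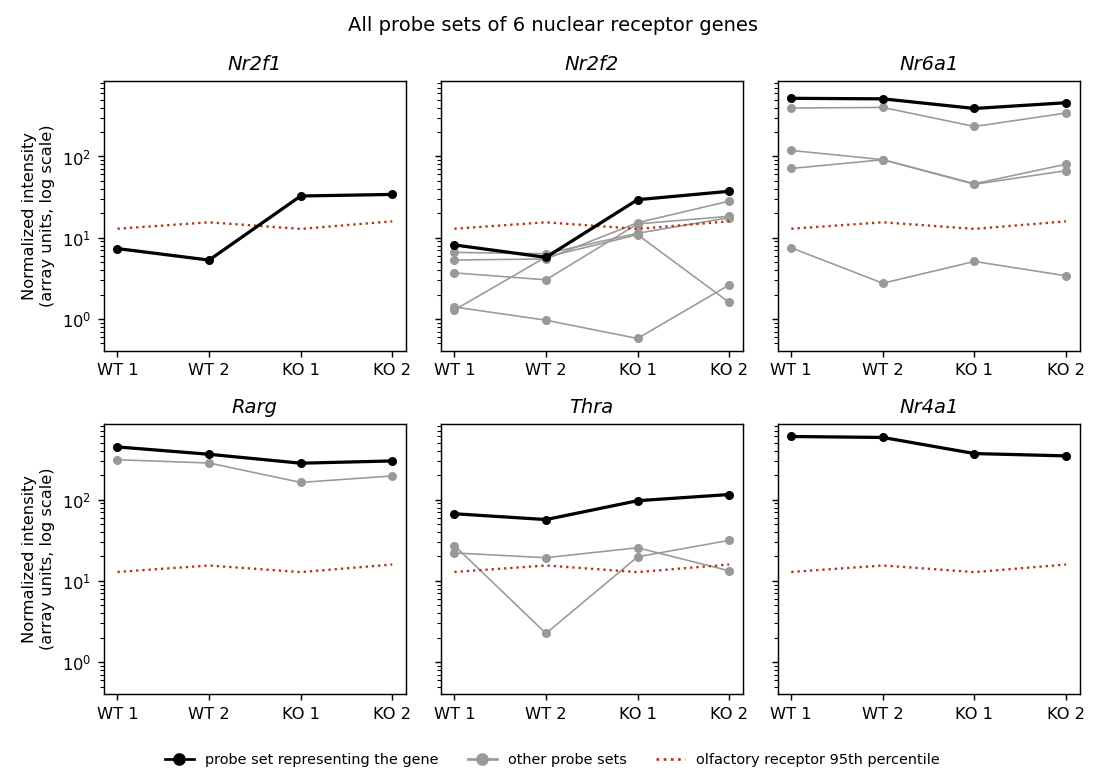
Normalized intensity (array units, log axis) of every probe set of Nr2f1, Nr2f2, Nr6a1, Rarg, Thra and Nr4a1 on the 4 arrays; a line joins the values of 1 probe set, black for the one that represents the gene, and the dotted line is the olfactory receptor 95th percentile. The 4 brighter probe sets of Nr6a1 and both of Rarg are lower in both KO clones, while the representing probe sets of Nr2f1 and Nr2f2 cross the dotted line.

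Nr2f1 and Nr2f2 are also expressed by fibroblasts and other mesenchymal cells, and genes of such cells were higher on the same arrays. Of 14 fibroblast markers, 13 were kept, 12 rose and 0 fell (median log2 fold change 2.13), while 7 passed with a pseudocount of 1 or no filter. Of all genes, 2.94% were higher and 1.34% lower. These markers were listed with earlier results of these data known, so their count and median test nothing. Their summed intensity was 2274 and 2044 in WT against 9162 and 8862 in KO clones. No fibroblast marker read exactly 0, but neither did any probe set (lowest deposited intensity 0.0168), so this does not show expression. Dcn, a matrix proteoglycan made by fibroblasts, read 2.14 and 2.89 in WT, under the background, and 72.0 and 59.1 in KO clones. It too was kept by the filter only through its KO values. Lum, a related proteoglycan, was under background on every array. Of 8 ES cell markers, all above background on every array, 0 rose, 0 fell and 8 did not pass (0 at an unadjusted p below 0.05 as well), and their summed intensity was 35860 and 36751 in WT against 34612 and 34934 in KO clones. Among kept genes of the other lists, 0 of 6 primitive endoderm markers passed by limma (2 higher at an unadjusted p below 0.05). Of 6 neural markers 0 passed (0 at an unadjusted p below 0.05). Of 7 trophectoderm markers 1, the keratin Krt18, fell (1 higher and 3 lower at an unadjusted p below 0.05). At that level 10.9% of all genes were higher and 10.6% lower. RNA integrity, read as the log2 excess of beta-actin's 3′ control probe set over its 5′ one, stood at 0.48 and 0.44 for WT against 0.75 and 0.52 for KO clones. The part of the fibroblast genes or of RNA quality in the rise of the COUP factors was not tested. In such bulk samples a change in the share of cells of a type and a change in RNA per cell cannot be told apart.

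Among the retinoid receptors, 0 of 5 tested genes passed by limma. At an unadjusted p below 0.05 (limma) 2 were lower, where 10.6% of all genes were. For 4 of the 5 (Rara, Rarg, Rxra and Rxrb) the KO values lay under every WT value, as they did for 29.7% of all genes. In the values as deposited this held for 3 of the 5 (30.5% of all genes), and with median centring for 4 (41.6% of all genes). Rarg, the retinoic acid receptor gamma that predominates in ES cells, read 446 and 362 in WT against 281 and 299.6 in KO clones. Its log2 fold change was -0.45 (95% confidence interval -0.88 to -0.02, adjusted p = 0.23), and its other probe set, at 310 and 283 in WT against 163 and 196 in KO clones, had -0.68 ± 0.19 (adjusted p = 0.088). Rara, the widely expressed receptor alpha, read 75.7 and 68.0 in WT against 39.2 and 53.4 in KO clones. The groups did not overlap, and the log2 fold change was -0.50 (-0.95 to -0.06, adjusted p = 0.19). Rarb, the receptor that retinoic acid itself induces in many cells, was at 0.401 and 0.697 in WT against 6.33 and 1.46 in KO clones, all under the background.

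The RXR genes encode the shared partner of the retinoid, thyroid, vitamin D and lipid receptors. Rxra read 127 and 165 in WT against 117 and 112 in KO clones, with a log2 fold change of -0.30 (-0.74 to 0.14), and a dimmer probe set had -0.41. Rxrb read 401 and 377 in WT against 347 and 364 in KO clones, a log2 fold change of -0.12 (-0.53 to 0.28). The intervals of these 2 representing probe sets include 0. That of the dimmer Rxra probe set ran from -0.83 to -0.004 (adjusted p = 0.24 in limma). Rxrg, known mainly from muscle and brain, read 9.02 and 34.0 in WT clones, so its WT arrays lay on either side of the background, and 26.8 and 21.98 in KO clones.

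The thyroid hormone, PPAR and ROR receptors were tested for 3 of 7 genes, of which 0 passed by limma. At an unadjusted p below 0.05 (limma) 1, Thra, was higher, where 10.9% of all genes were. Thra, the thyroid hormone receptor alpha, read 67.1 and 56.9 in WT against 97.0 and 116 in KO clones. Both KO clones lay above both WT clones. Its log2 fold change of 0.65 ± 0.19 had a 95% confidence interval of 0.22 to 1.08 and did not pass (adjusted p = 0.10), and its groups overlapped in the values as deposited. Of its further probe sets, one had -0.07 (adjusted p = 0.89) and the other 0.55 (adjusted p = 0.42), and both overlapped between genotypes. Thrb, the beta receptor of liver and pituitary, stayed between 5.33 and 16.9. Ppard, the ubiquitous fatty acid receptor, read 96.6 and 87.6 in WT against 64.9 and 77.2 in KO clones, with a log2 fold change of -0.31 (-0.73 to 0.10, adjusted p = 0.37). Ppara, which drives fatty acid oxidation in liver, was above background in KO clone 1 alone, at 17.9, and Pparg, the regulator of fat cells, stayed between 0.778 and 2.73. Rora, a circadian activator, had a log2 fold change of 0.10 (-0.30 to 0.50) on its brightest probe set, but 2 other kept ones read lower in both KO clones, at -0.61 and -0.25. Rorb, a receptor of retina and cortex, was under the filter, with 6.12 and 4.16 in WT against 21.5 and 10.8 in KO clones.

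The Rev-erb receptors Nr1d1 and Nr1d2 bind haem and repress clock genes. Nr1d1 read 53.8 and 71.2 in WT against 29.6 and 47.8 in KO clones, lower in both KO clones, with a log2 fold change of -0.53 (95% confidence interval -1.04 to -0.02, adjusted p = 0.23). Nr1d2 read 398 and 482 in WT against 714 and 521 in KO clones, higher in both, with 0.46 (-0.02 to 0.95, adjusted p = 0.26), and its dimmer probe set had 0.05 (adjusted p = 0.92). Without KO clone 1 the log2 fold change was -0.30 for Nr1d1 and 0.24 for Nr1d2, and that of Nr1d2 was 0.13 in the values as deposited and 0.17 with median centring. Neither passed, although the paralogs differed in sign in each alternative processing. In GRCm38.p6 Nr1d1 and Thra are neighbouring genes that overlap, Thrb lies next to Rarb, and a single protein-coding gene separates Thrb from Nr1d2. Within the overlapping pair, Thra read higher and Nr1d1 lower in both KO clones. Whether a probe set of one can read transcripts of the other was not tested. Of the lipid, bile acid and xenobiotic receptors, Nr1h3 (LXR alpha) stayed between 3.78 and 18.6, Nr1h4 (FXR) between 2.58 and 22.3, Nr1i3 (CAR) between 1.90 and 15.5 and the vitamin D receptor Vdr between 1.09 and 15.7. All 4 were under the filter.

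The remaining orphan receptors of subfamilies 2 and 6 were Nr6a1, Nr2c1, Nr2c2, Nr2e1, Hnf4a and Hnf4g. Nr6a1, the germ cell nuclear factor that silences Pou5f1 in differentiating cells, read 519 and 512 in WT against 389.5 and 458 in KO clones. Its log2 fold change was -0.28 (-0.69 to 0.14), and all 4 of its kept probe sets read lower in both KO clones, from -0.64 to -0.28. Nr2c1 and Nr2c2, the testicular receptors TR2 and TR4, were above background on every array. Nr2c1 read 88.9 and 80.6 in WT against 47.7 and 79.8 in KO clones, so KO clone 2 lay just under the WT values, and its log2 fold change of -0.37 (-0.88 to 0.15, adjusted p = 0.40) moved to -0.08 when KO clone 1 was left out and to -0.66 when KO clone 2 was. Nr2c2 read 322 and 406 in WT against 300.5 and 311 in KO clones, a log2 fold change of -0.23 (-0.67 to 0.20). Hnf4a, the hepatocyte nuclear factor of liver and visceral endoderm, read 28.2 and 28.4 in WT against 28.1 and 11.7 in KO clones. On this probe set KO clone 2 alone was low, and the log2 fold change of -0.34 (-0.88 to 0.20, adjusted p = 0.45) was -0.01 without that clone and -0.69 without KO clone 1. The other Hnf4a probe sets, all under the filter, read lower in both KO clones. The brightest of them read 19.1 and 13.2 in WT against 9.97 and 6.76 in KO clones. Hnf4g, its intestinal paralog, and Nr2e1 (Tlx), the receptor of neural stem cells, were under the background throughout.

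Among the steroid and oestrogen-related receptors, 0 of 4 tested genes passed by limma. At an unadjusted p below 0.05 (limma) 1, Esrra, was higher, where 10.9% of all genes were. Esrra, the oestrogen-related receptor alpha that drives mitochondrial genes, read 102 and 101 in WT against 174 and 149 in KO clones. Both KO clones lay above both WT clones, and the log2 fold change was 0.59 ± 0.18 (95% confidence interval 0.18 to 1.01, adjusted p = 0.12), with overlapping groups in the values as deposited. Its dimmer probe set had -0.35 (adjusted p = 0.50), and with the mean of the 2 probe sets the value was 0.12. Nr3c1, the glucocorticoid receptor, read 158 and 143 in WT against 173 and 198 in KO clones, with 0.27 (-0.14 to 0.69), and its 4 other kept probe sets overlapped between genotypes, from -0.24 to 0.21. Nr3c2, the mineralocorticoid receptor, read 12.6 to 16.6 and the oestrogen receptor Esr1 11.6 to 14.1, both at the level of the background. Esr2 stayed between 0.914 and 2.81, Esrrg between 0.964 and 24.7 and the progesterone receptor Pgr between 3.18 and 16.6.

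Nr4a1 (Nur77), an orphan receptor switched on rapidly by growth factors and calcium, lay closest to the threshold of the genes that did not pass. It read 599 and 583 in WT against 369 and 346 in KO clones, and the gap between genotypes was wider than that within either. Its log2 fold change was -0.70 ± 0.18 (95% confidence interval -1.10 to -0.30, adjusted p = 0.069). It passed with a pseudocount of 64 (adjusted p = 0.012 in limma), a variance trend (0.022) or gene means (0.024). It also passed with the filter at the 60th percentile (0.033) and with arrays centred on the median (log2 fold change -0.99, adjusted p = 0.0067). After centring, the median of all genes was itself -0.19. Every gene refitted singly had the same SE of 0.27 there, so that p-value does not reflect the spread of Nr4a1 itself. Nr4a1 did not pass in the other 8 alternatives. Its paralog Nr4a2 (Nurr1), the receptor of dopamine neurons, read 29.9 and 33.1 in WT against 31.4 and 28.9 in KO clones, with overlapping groups and -0.04 (-0.45 to 0.36). Nr4a3 was under the background throughout, at 4.11 to 7.85. Nr5a1 (SF-1), the regulator of steroid synthesis, read 4.28 to 13.2. Nr0b2 (SHP), a receptor with no DNA-binding domain that represses others, read 23.7 and 22.6 in WT against 5.98 and 33.5 in KO clones, so that KO clone 1 was under the background and KO clone 2 above both WT clones.

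**Figure D4:**
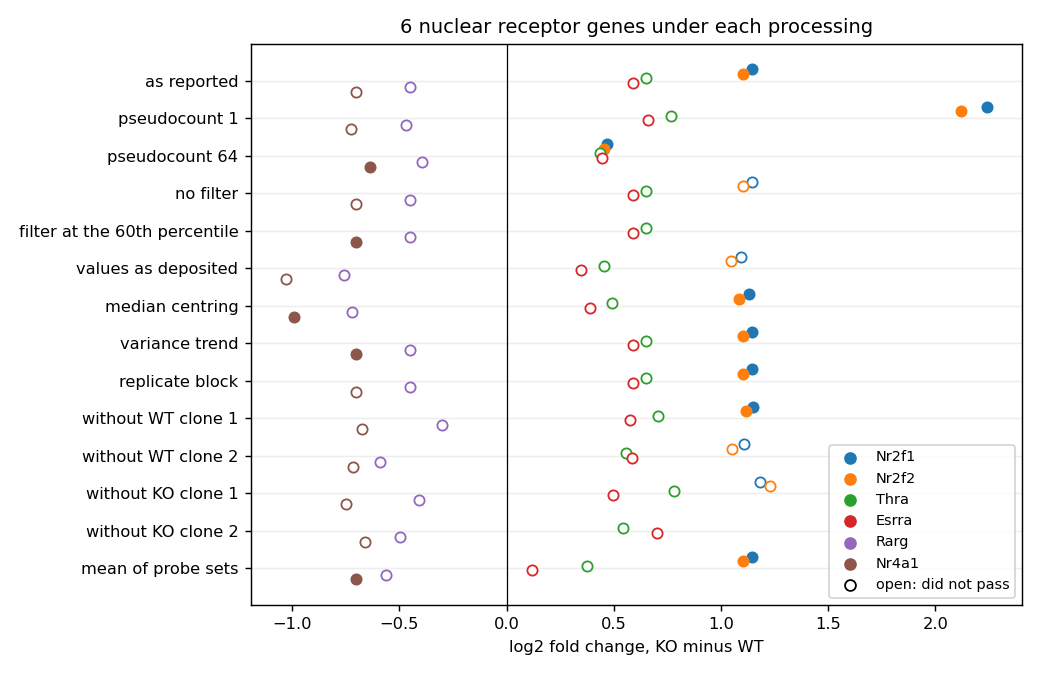
Log2 fold change (KO minus WT) of Nr2f1, Nr2f2, Thra, Esrra, Rarg and Nr4a1 as reported and under 13 alternative processings, 1 row each; filled points passed at an adjusted p below 0.05 and open points did not, and a gene absent from a row was under the filter there. No gene changes side of 0, Nr2f1 and Nr2f2 range from 0.46 to 2.24, and Nr4a1 is filled in 5 of the 13 alternatives.

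The ES cell receptors outside the 42 gave these values on the same arrays. Nr0b1 (Dax1) read 1108 and 730.3 in WT against 295 and 323 in KO clones, with a log2 fold change of -1.497 ± 0.227 (adjusted p = 0.0095) that did not pass without KO clone 1 (adjusted p = 0.11) or KO clone 2 (0.064), nor with a pseudocount of 1 (0.098) or no filter (0.089). Esrrb, an oestrogen-related receptor of the pluripotency network, read 1125 and 924 in WT against 549 and 738 in KO clones (-0.67 ± 0.21, adjusted p = 0.13), and Nr5a2 (Lrh1), which binds the Pou5f1 promoter, 1084 and 734 against 641 and 686 (-0.42 ± 0.22, adjusted p = 0.32). Without WT clone 1 the value of Nr5a2 was -0.14, and without WT clone 2 it was -0.70. All 3 read lower in both KO clones, beside 29.7% of all genes. Whether they differ in response from the other receptors was not tested.

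Receptors act through coregulators, which open or close chromatin, and steroid receptors are held ready by chaperones. Of 25 such genes listed, 20 were tested, 0 passed by limma (2 lower at an unadjusted p below 0.05, where 10.6% of all genes were), and 1 read higher and 9 lower in both KO clones (25.9% and 29.7% of all genes), with a median log2 fold change of -0.14 beside -0.02 for all genes. The largest value was that of Ppargc1b (PGC-1 beta), a coactivator of the oestrogen-related receptors, at 67.6 and 62.2 in WT against 14.2 and 34.1 in KO clones. Its groups did not overlap, and its log2 fold change was -1.05 ± 0.25 (adjusted p = 0.055). KO clone 1 lay lowest. Its paralog Ppargc1a was under the background on all arrays. Tbl1x, a subunit of the corepressor complex, had -0.46 ± 0.19 (adjusted p = 0.21).

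Retinoid metabolism sets the supply of ligand to the retinoic acid receptors. Of 17 genes listed, 11 were tested, and 0 passed by limma (2 higher and 1 lower at an unadjusted p below 0.05, where 10.9% and 10.6% of all genes were), with a median of 0.07. The fatty acid binding protein Fabp5, which also binds retinoic acid, read 2130 and 2788 in WT against 3557 and 3818 in KO clones (0.59 ± 0.20, adjusted p = 0.14). Crabp1, the cellular retinoic acid binding protein, read 134 and 145 in WT against 202 and 188 in KO clones (0.44 ± 0.18, adjusted p = 0.21). Aldh1a2, the enzyme that makes retinoic acid in the embryo, read 37.6 and 46.4 in WT against 26.8 and 20.9 in KO clones (-0.54 ± 0.19, adjusted p = 0.16). In each of these the KO clones lay on one side of the WT clones. Cyp26a1, which breaks retinoic acid down and is one of its most sensitive targets, read 25.4 and 16.5 in WT against 28.5 and 28.9 in KO clones (0.29 ± 0.19, adjusted p = 0.44).

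Of 39 genes listed as targets of nuclear receptors, 26 were tested, 1 rose, 0 fell and 25 did not pass (median 0.09), beside the 2.94% higher and 1.34% lower of all genes. The gene that rose was Stra8, a meiosis gene induced by retinoic acid. It read 80.6 and 104 in WT against 196 and 223 in KO clones, clear of each other, and rose by 1.07 ± 0.20 on the log2 scale (adjusted p = 0.022). It did not pass without WT clone 1 (adjusted p = 0.096), KO clone 1 (0.11) or KO clone 2 (0.095), nor with a pseudocount of 1 (0.11), no filter (0.11) or the values as deposited (0.39). The other retinoic acid targets of this list that were measured, Cdx1 and Hoxb1, were under the filter. Cyp26a1 and Rarb, which retinoic acid also induces, were counted elsewhere and are given above. Cyp26a1 was tested and did not pass (0.29 ± 0.19), and Rarb was under the background. Cdx1 read 35.7 and 9.87 in WT against 1.01 and 8.88 in KO clones, and Hoxb1 1.46 to 12.5. Among glucocorticoid receptor targets, Fkbp5, a chaperone of that receptor, read 852 and 909 in WT against 413 and 627 in KO clones (-0.77 ± 0.23, adjusted p = 0.10), whereas Tsc22d3 had 0.36 (adjusted p = 0.31). The PPAR target Plin2, a lipid droplet coat protein, had 0.69 ± 0.20 (adjusted p = 0.0997), the thyroid hormone target Klf9 had -0.62 ± 0.20 (adjusted p = 0.13) and the LXR target Apoe had -0.56 ± 0.19 (adjusted p = 0.14).

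**Figure D5:**
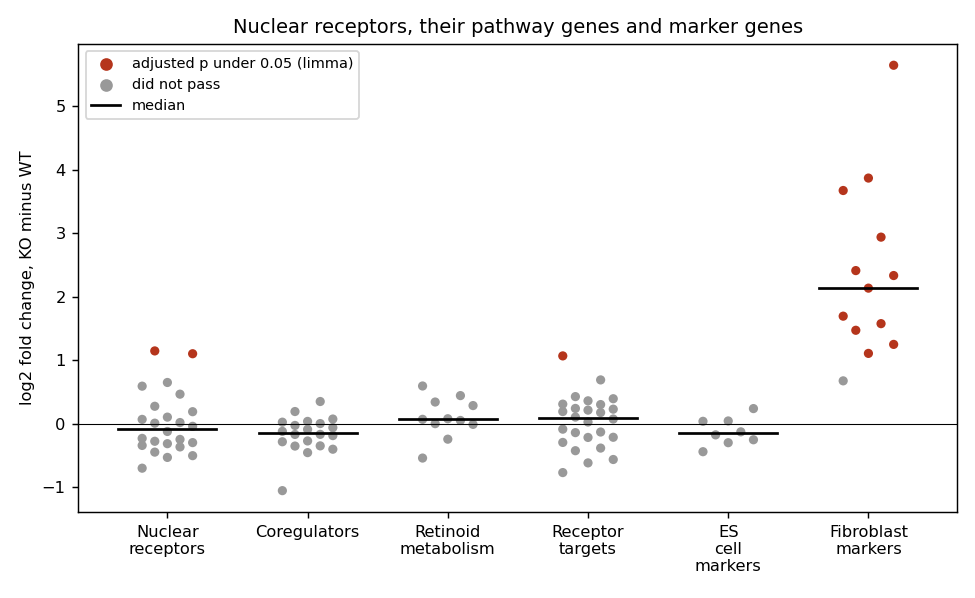
Log2 fold change (KO minus WT) of each kept gene of 6 lists, with a bar at the median of the list; red points passed at an adjusted p below 0.05. The medians of nuclear receptors, coregulators, retinoid metabolism and receptor targets lie between -0.14 and 0.09, and that of fibroblast markers is 2.13.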

How the data were processed

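Biotin-labelled total RNA was hybridised to 1 array per clone, per the labels. For each array the authors deposited 1 linear intensity for each of 45101 probe sets, 64 of them controls. No label or header names the summary algorithm, background correction or scaling. Arrays were grouped by their titles. Intensities were quantile normalized and log2(intensity + 16) was taken. Non-control probe sets with a mean below the 40th percentile (normalized intensity 13.0) were removed, which left 27022. KO was compared with WT with lmFit and eBayes (limma 3.58.1, R 4.3.3; 2 residual and 6.87 prior degrees of freedom), with Benjamini-Hochberg adjustment across the 27022. The fit was also run on simulated data with independent normal noise drawn from its own spread estimates. Such data meet the assumptions of the fit, so nothing is read from that run about these arrays.

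Names came from the platform annotation: 34958 rows had 1 symbol, 932 several and 9160 non-control rows none. The gene IDs of 34754 matched the RefSeq table, which changed 0 symbols. A gene was represented by its brightest kept probe set, one ending in _x_at only where there was no other. The members and lists were chosen with earlier results of these data known. Members given with an adjusted p were those past the threshold, the 10 largest others and any with an absolute log2 fold change of at least 0.5 and groups that do not overlap, and the others are given by level, some with an interval; from the other lists, genes past the threshold, and further genes (Ppargc1b, Tbl1x, Fabp5, Crabp1, Aldh1a2, Cyp26a1, Fkbp5, Tsc22d3, Plin2, Klf9, Apoe, Cdx1, Hoxb1, Ppargc1a) chosen after their values were seen. Of the list genes, 10 were not analysed here. Alternatives are in the closing section. The number of arrays limits the precision.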

Additional observations from a re-analysis of the deposited data

How the results depend on the processing

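Of the nuclear receptor genes measured, 2 of 24 passed as reported and 0 of 40 with no filter. With the filter at the 60th percentile it was 1 of 15 (Nr4a1), and in the values as deposited 0 of 24. The shares of all genes that passed were 4.28%, 0.643%, 8.11% and 1.48% in these 4 settings. The number of receptor genes was 2 or 3, of 23 or 24 measured, in the other 6 alternatives that used every array. With an array left out, the lone array of its group is assumed to vary like the other group. Coregulators counted 0 as reported and 1 (Ppargc1b) with a pseudocount of 64, median centring, a variance trend, the replicate block and gene means, and 0 to 1 with an array left out. Retinoid metabolism genes counted 0 as reported and 1 (Fabp5) with a pseudocount of 64, a variance trend and gene means. Receptor targets counted 1 as reported, 0 with a pseudocount of 1, no filter and the values as deposited, 5 with a pseudocount of 64 and with a variance trend, 4 with median centring, 3 with gene means, and 0 to 1 with an array left out. Of Nr0b1, Nr5a2 and Esrrb, whose alternatives were added after seeing the data, 1 passed as reported, 0 with a pseudocount of 1 and no filter, 2 with a pseudocount of 64, median centring and a variance trend, and 0 to 1 with an array left out. Receptor genes whose groups do not overlap numbered 19 of 24 as reported, beside 55.6% of all genes. They numbered 15 with median centring, beside 13.2% of all genes above and 41.6% below. In the values as deposited they numbered 9, beside 8.36% of all genes above and 30.5% below. Genes refitted singly were the 12 receptors given with an adjusted p, Nr0b1, Nr5a2, Esrrb and Stra8. None changed sign in an alternative in which it was measured. The 12 receptors were picked for the size of their change, so a constant sign was likely beforehand. Nr2f6 and Nr3c2, which are not among them, turned from 0.02 and 0.01 to -0.24 and -0.03 in the values as deposited.

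Over all genes, 558 passed as reported, 114 with a pseudocount of 1, 1180 with one of 64, 117 with no filter, 193 in the values as deposited, 1078 with median centring, 1120 with a variance trend, 1052 with gene means and 113 to 359 with an array left out. The share of calls that were higher in KO clones was 68.6% as reported and 32.2% with median centring. The median of all genes was -0.23 in the values as deposited and -0.19 after median centring. Relative to it Nr2f1 had 1.32, Nr2f2 1.28 and Nr4a1 -0.80. These are the same in both settings by construction, since centring shifts every gene alike. Every gene refitted singly had the same SE within each setting (0.38 as deposited, 0.27 centred). The p-values of these settings therefore do not reflect the spread of each gene. With clone number as a replicate block, 761 genes and 2 nuclear receptors passed, and deviations of same-numbered clones correlated at 0.05, so the numbers were not taken to pair the clones. With 2 arrays per group, the 95% intervals of receptors that did not pass reached 0.40 to 0.75 on the log2 scale to either side of the estimate.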

Other observations

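Of the 40 receptor genes, 12 had more than 1 probe set kept by the filter. In 5 of these (Nr1d2, Nr2f6, Nr6a1, Rarg and Rxra) the kept probe sets had the same sign, and in 7 (Esrra, Nr2c1, Nr2c2, Nr3c1, Nr4a2, Rora and Thra) they had both signs. For Nr2c1 the log2 fold changes ran from -0.60 to 0.14, for Nr2c2 from -0.48 to 0.16 and for Rora from -0.61 to 0.10.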
